A study of Mus musculus with 4 samples.

Results

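Dazl, Boll, Cpeb1, Cpeb2, Pum2, Elavl1, Celf1, Msi1 and Msi2 encode RNA-binding proteins that control when stored mRNAs are translated in germ cells and other tissues. These 9 genes, of 55450 genes in GENCODE M21, were followed here as RNAs, through the IGF2BP3 eCLIP-seq clusters that lie on them. A cluster was given to a gene when its centre fell inside the gene span on the gene's own strand in mm10. This gave 731 of 337234 clusters in replicate 1 and 571 of 216354 in replicate 2.

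The samples were whole testes of 8-week-old wild-type C57BL/6 mice, with germ cells and somatic cells together, and each preparation used 2 testes. Lysis followed 3 rounds of UV crosslinking (254 nm, 400 mJ per square centimetre). The strain is given as C57BL/6J in the protocol. There were 4 libraries, 2 of RNA precipitated with an antibody to IGF2BP3 (IP) and 2 size-matched inputs (SMInput), taken as 2% of the lysate without antibody. The series' design text mentions an IgG control and 3 replicates, while the sample labels give 2 replicates of IP and input, and an IgG library was not analysed here. No Igf2bp3 knock-out sample was analysed here either, so the SMInput is the background for every value. Because the tissue was used whole, fewer cells of a type and less RNA per cell cannot be told apart.

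eCLIP ties RNA to the protein that touches it, pulls the protein down and sequences the RNA fragments that come with it. IGF2BP3 belongs to a family of mRNA-binding proteins that act on the stability, storage and translation of their targets. Male germ cells stop transcription well before they finish their development, so late proteins are made from mRNAs that were stored and are released on time. The regulators themselves work mostly through 3′UTRs: DAZ proteins help to activate translation, CPEB proteins control the length of poly(A) tails, Pumilio and Musashi proteins mainly repress, and ELAVL1 and CELF1 act on stability through U-rich and GU-rich elements.

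For each cluster the authors list the log2(fold change) of IP over SMInput reads, each scaled to its library, and the −log10(P value) of that comparison. A cluster was called significant when both values reached 2. The read totals behind these values, recovered from the listed values, were 5133438 IP and 8706391 SMInput reads in replicate 1 and 4637612 IP and 16696122 SMInput reads in replicate 2. SMInput thus had the larger read total in replicate 2. Significant clusters of the 9 genes with fewer than 10 IP reads numbered 8 in replicate 1 and 41 in replicate 2. Their median was 22 IP reads in replicate 1 and 10 in replicate 2, beside 13 and 8 over all significant clusters with recovered reads. Low read numbers in replicate 2 were thus not particular to the 9 genes. What part the read totals had in the difference between replicates was not tested. Intervals in parentheses are exact 95% intervals of the ratio of IP to SMInput reads in 1 library pair and cover counting error only.

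In replicate 1, 57 of the 731 clusters of the 9 genes were significant, which is 7.8%, beside 4.92% of all clusters. In replicate 2, 86 of 571 were significant, which is 15.1%, beside 13.2% of all clusters. Without Dazl the counts were 43 of 707 (6.08%) and 76 of 551 (13.8%). A significant cluster was present in both replicates for 8 of the 9 genes, and for 35.2% of the 14251 genes with any cluster in both. With at least 10 IP reads this left 6 of the 9, without Cpeb1 and Msi2, and the share over all genes was not recomputed. Genes were not matched for their number of clusters, here or in the next comparison. Significant clusters of both replicates overlapped each other in 6 of the 9 genes, Dazl, Boll, Cpeb2, Pum2, Elavl1 and Celf1, and in 15.1% of the 14251 genes. These overlaps formed 15 sites, 7 in Boll, 3 in Dazl, 2 in Cpeb2 and 1 each in Pum2, Elavl1 and Celf1. Cpeb1, Msi1 and Msi2 had none. Raising both thresholds to 3 left 11 and 8 significant clusters and 2 sites, 1 in Boll and 1 in Dazl.

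**Figure D1:**
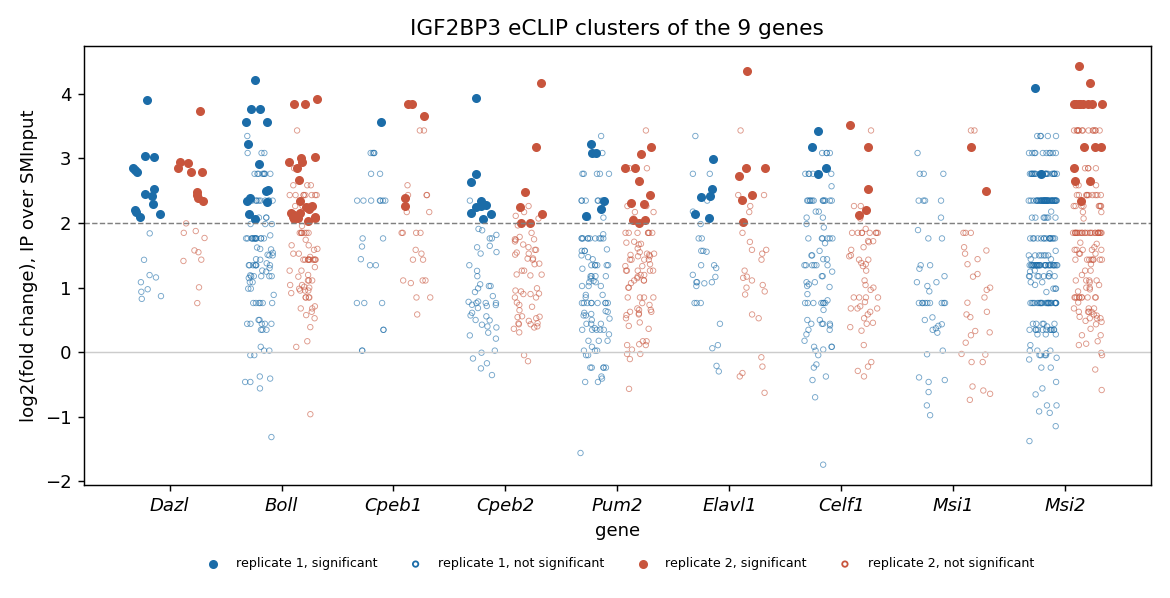
Each point is 1 cluster, placed by its gene and its log2(fold change) of IP over SMInput, with filled points for significant clusters and open points for the others; the dashed line marks the threshold of 2. Every cluster of Dazl and every cluster of Cpeb1 lies above 0 in both replicates. Msi2 holds 231 and 155 clusters, of which 213 and 151 lie above 0 and 2 and 17 are significant.

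Dazl (ENSMUSG00000010592.9) encodes a protein of the DAZ family, which binds 3′UTRs of germ-cell mRNAs and is needed for germ cells to survive and enter meiosis. It spans chr17:50279395-50293636 on the minus strand and held 24 clusters in replicate 1 and 20 in replicate 2. All of them had more IP than SMInput reads after scaling, with a median log2(fold change) of 2.16 in replicate 1 and 2.17 in replicate 2. Significant were 14 of 24 clusters (58.3%) and 10 of 20 (50.0%). This was the highest share among the 9 genes in each replicate. No cluster of Dazl lay in an intron. In replicate 1, 88 of the 116 clusters of Boll and 203 of the 231 of Msi2 did, and the shares were not adjusted for this. Of the significant clusters of Dazl, 11 and 8 lay in the 3′UTR and 3 and 2 in the CDS. The 5′UTR held 2 clusters and 1 cluster, none of them significant.

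The strongest Dazl site covered 443 bases of the 3′UTR, chr17:50279737-50280179, from base 1070 after the stop codon to 342 bases before the end of the 1854-base 3′UTR. In replicate 1 it joined 6 significant clusters with 54 to 176 IP reads each, where SMInput had 10 to 43, and their log2(fold change) ran from 2.18 to 3.90. In replicate 2 it joined 7 clusters with 42 to 154 IP reads each, where SMInput had 25 to 73, and their log2(fold change) ran from 2.39 to 3.73. The cluster with the lowest P value had 176 IP and 43 SMInput reads in replicate 1, a log2(fold change) of 2.80 (95% interval 2.31 to 3.31) and a −log10(P value) of 39.0. Its partner in replicate 2 had 154 IP and 73 SMInput reads, a log2(fold change) of 2.92 (2.51 to 3.35) and a −log10(P value) of 62.3. The replicates thus differed by less than their counting intervals, and the lower bounds of both lay above the threshold. Every shared site had to reach the thresholds in both replicates, which favours such overlap, so it is no separate check of agreement.

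Closer to the end of the Dazl 3′UTR, a site of 43 bases at chr17:50279511-50279553 ended 116 bases before the last base. Its log2(fold change) was 2.21 (1.40 to 3.07) from 49 IP and 18 SMInput reads in replicate 1 and 2.34 (1.73 to 2.98) from 55 and 39 reads in replicate 2. A site of 29 bases in the CDS, in exon 2 of the 11 exons of Dazl-201, lay at chr17:50289092-50289120 and rested on fewer reads. There the log2(fold change) was 2.85 (1.23 to 4.88) from 17 IP and 4 SMInput reads in replicate 1 and 2.43 (1.02 to 3.93) from 12 and 8 reads in replicate 2. The upstream part of the 3′UTR differed between the replicates in what was called. In replicate 1 significant clusters at chr17:50280531-50280584, chr17:50280946-50280983 and chr17:50281212-50281224 had 45, 48 and 26 IP reads, and no cluster of replicate 2 overlapped them.

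**Figure D2:**
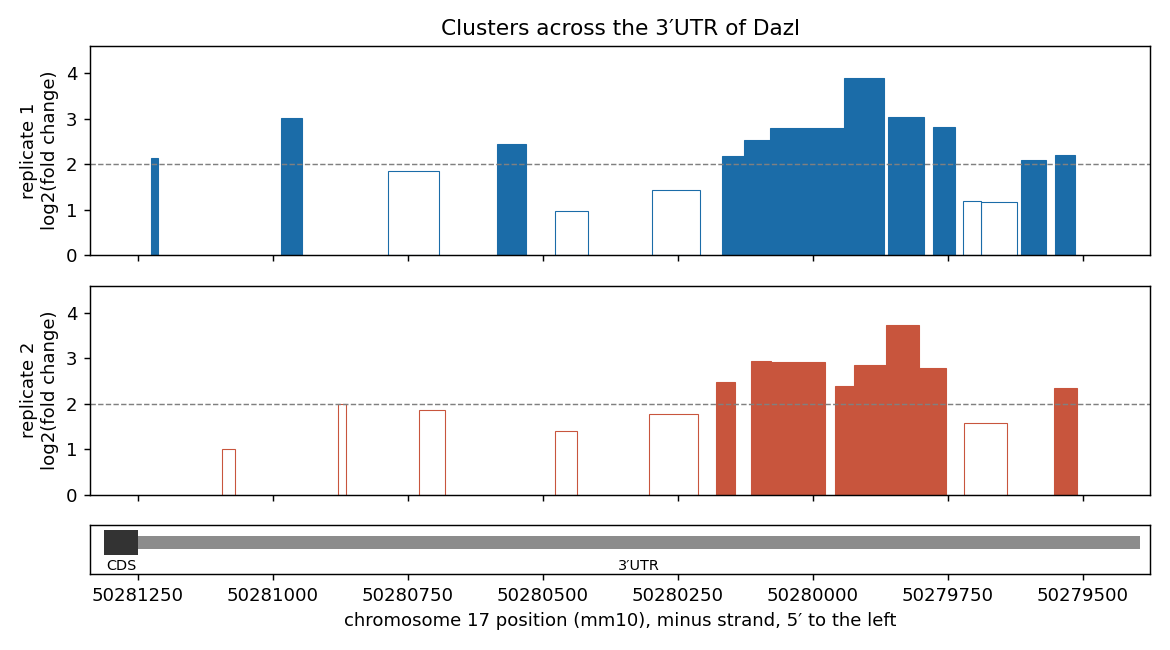
Bars span the clusters across the 1854-base 3′UTR of Dazl on chromosome 17, with the log2(fold change) of IP over SMInput as height, in replicate 1 above and replicate 2 below; filled bars are significant, and the lowest track gives the annotation. In both replicates the filled bars crowd between 50279737 and 50280179.

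Boll (ENSMUSG00000025977.15) encodes the most ancient member of the DAZ family and is needed for the development of spermatids. Its span, chr1:55248658-55363469 on the minus strand, held 116 clusters in replicate 1 and 95 in replicate 2. Of these, 14 (12.1%) and 22 (23.2%) were significant. By number of significant clusters Boll stood at rank 72 in replicate 1 and rank 37 in replicate 2 of the 14251 genes, and by number of shared sites at rank 32, with 31 genes above it and 20 genes, itself included, at 7 sites. Dazl stood at ranks 72 and 389 by significant clusters and at rank 228 by sites.

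The 7 Boll sites fell into 2 stretches, 3 in an alternative last exon and 4 in internal coding exons. The basic set of GENCODE transcripts, used for the shares by region, ends Boll at 55300069, so 8 and 10 of its significant clusters counted as outside these transcripts. In the full annotation, the coding transcript Boll-206 has a last exon at chr1:55268856-55270665, of which 1786 bases are 3′UTR. This 3′UTR held 11 clusters in each replicate, of which 5 in replicate 1 and 8 in replicate 2 were significant. Another last exon in the full annotation, chr1:55248658-55248964 of a transcript typed as subject to nonsense-mediated decay, held 2 significant clusters in replicate 2 and none in replicate 1. The full annotation was read after the data had been seen.

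In the 3′UTR of Boll-206, the site with the largest log2(fold change) of the 15 lay at chr1:55269783-55269815, starting 827 bases after the stop codon. It gave 4.22 (2.20 to 7.36) from 22 IP and 2 SMInput reads in replicate 1 and 3.92 (2.47 to 5.68) from 21 and 5 reads in replicate 2. Deeper sites stood on either side of it. At chr1:55270018-55270179 the log2(fold change) was 2.35 (1.53 to 3.23) from 51 IP and 17 SMInput reads in replicate 1, and 2.67 (2.15 to 3.21) from 85 and 48 reads in replicate 2. At chr1:55269315-55269480 it was 2.33 (1.61 to 3.09) from 65 and 22 reads in replicate 1, and 2.95 (2.28 to 3.65) from 60 and 28 reads in replicate 2. The intervals of the replicates overlapped at each of these 3 sites, which the choice of sites by both replicates favours.

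**Figure D3:**
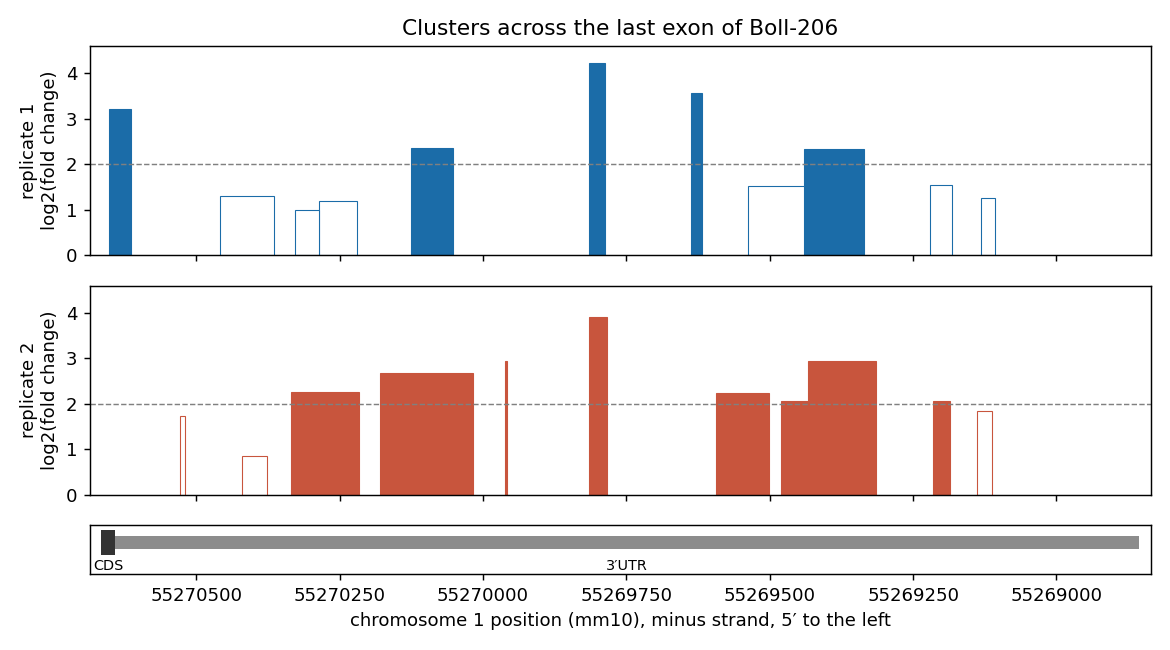
Bars span the clusters across the last exon of the transcript Boll-206 on chromosome 1, with the log2(fold change) of IP over SMInput as height, in replicate 1 above and replicate 2 below; filled bars are significant. The tallest shared bars, 4.22 and 3.92, stand at 55269783 to 55269815.

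The 4 coding sites of Boll lay in consecutive exons, 6 to 9 of the 10 exons of Boll-201. The site in exon 9, chr1:55304578-55304628, had a log2(fold change) of 2.06 (1.09 to 3.12) in replicate 1 and 3.0 (2.25 to 3.80) in replicate 2, with 32 and 49 IP reads, and adding 1 read to IP and SMInput took replicate 1 just under the threshold. The site in exon 8, chr1:55305676-55305727, had 2.91 (1.70 to 4.34) and 2.85 (1.97 to 3.78), with 31 and 34 IP reads. Those in exon 7, chr1:55323650-55323724, and exon 6, chr1:55340471-55340606, had 2.52 and 2.39 in replicate 1 and 2.07 and 2.09 in replicate 2. Of the coding sites, 3 were higher in replicate 1 and 1 in replicate 2, each within overlapping intervals, which the choice of sites favours. In exons 6, 7 and 8 the site spanned the whole exon, and in exon 9 it covered the 5′ part. In the full annotation the introns of Boll held 88 and 64 clusters with a median of 4 IP reads in each replicate, and 3 and 4 of them were significant, all with fewer than 10 IP reads.

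The CPEB proteins bind U-rich cytoplasmic polyadenylation elements and switch mRNAs between short and long poly(A) tails. CPEB1 is required in meiotic germ cells, and CPEB2 is a paralog expressed in the testis. Cpeb2 (ENSMUSG00000039782.14) spans chr5:43233170-43289724 on the plus strand, with 10 of 55 clusters significant in replicate 1 (18.2%) and 7 of 62 in replicate 2 (11.3%). One shared site lay in its CDS, in exon 10 of 12, at chr5:43281393-43281487. It had 28 IP and 10 SMInput reads in replicate 1, a log2(fold change) of 2.25 (1.16 to 3.45), and 28 and 18 reads in replicate 2, a log2(fold change) of 2.49 (1.58 to 3.43). The other lay in the middle of the 3778-base 3′UTR, at chr5:43287835-43287905, with 1819 bases after it. There the log2(fold change) was 2.26 (1.23 to 3.40) from 31 and 11 reads in replicate 1 and 2.25 (1.5 to 3.01) from 37 and 28 reads in replicate 2, nearly the same value.

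The lowest P value of Cpeb2 in replicate 1 belonged to a cluster near the start of the 3′UTR, chr5:43286025-43286078, which gave a call in that replicate alone. Its log2(fold change) was 2.15 (1.19 to 3.20) from 34 IP and 13 SMInput reads, and the cluster over it in replicate 2 had 1.45 from 22 and 29 reads. The CDS of Cpeb2 held 31 and 27 clusters with up to 113 and 99 IP reads, a median log2(fold change) of 0.76 and 0.77, and 2 calls and 1 call. In replicate 1, 1 of its 10 significant clusters also lay inside the overlapping gene 6030400A10Rik on the same strand, so it cannot be given to 1 of them alone.

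Cpeb1 (ENSMUSG00000025586.17), on the minus strand at chr7:81347026-81455465, had 27 clusters in replicate 1 and 28 in replicate 2, of which 1 and 5 were significant and none overlapped between replicates. The read numbers were small throughout, with at most 16 IP reads in any cluster whose reads were recovered. Its strongest cluster in replicate 1 lay in an intron, chr7:81356129-81356199, with 7 IP reads and 1 SMInput read and a log2(fold change) of 3.57 (0.61 to 9.06). In replicate 2 it lay in the 3′UTR, chr7:81347435-81347537, with 16 and 11 reads and a log2(fold change) of 2.39 (1.19 to 3.64). No cluster of the other replicate overlapped either of them. In the 1315-base 3′UTR, 3 of 4 clusters were significant in replicate 2, while the 3 clusters of replicate 1 ran from 0.35 to 1.64 in log2(fold change). At chr7:81348110-81348150 replicate 2 had 3.66 (1.26 to 6.96) from 7 and 2 reads. The cluster over it in replicate 1 had 1.44 from 16 and 10 reads. This value lies inside the interval of replicate 2, and the difference was not tested.

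Pum2 (ENSMUSG00000020594.14) encodes a Pumilio protein, which binds its own element in 3′UTRs and mostly represses translation. It spans chr12:8674134-8752581 on the plus strand, with 6 of 107 clusters significant in replicate 1 (5.61%) and 11 of 88 in replicate 2 (12.5%). The shared site, chr12:8751715-8751817, lay in the last exon, starting at base 1995 of the 3′UTR. The log2(fold change) was 2.35 (1.15 to 3.71) from 24 IP and 8 SMInput reads in replicate 1 and 2.85 (1.74 to 4.04) from 22 and 11 reads in replicate 2. Further on in the 3′UTR, chr12:8751912-8751980 had 2.11 (1.06 to 3.26) in replicate 1, and the cluster over it in replicate 2 had 1.85, with 28 and 29 IP reads. The calls of replicate 2 were spread more widely, with 2 in the 3′UTR, 5 in the CDS and 4 in introns, and 7 of the 11 had fewer than 10 IP reads.

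Elavl1 (ENSMUSG00000040028.10) encodes HuR, which stabilises mRNAs with AU-rich elements and is needed in male germ cells. It lies on the minus strand at chr8:4285382-4325413, with 6 of 35 clusters significant in replicate 1 (17.1%) and 7 of 34 in replicate 2 (20.6%). All 6 calls of replicate 1 and 4 of the 7 of replicate 2 were in the 4218-base 3′UTR. The shared site, chr8:4286602-4286761, had a log2(fold change) of 2.53 (1.48 to 3.71) from 34 IP and 10 SMInput reads in replicate 1 and 2.72 (1.85 to 3.64) from 33 and 18 reads in replicate 2. The highest log2(fold change) of the gene, 4.35 (2.56 to 6.76) from 17 and 3 reads, was at chr8:4286048-4286097 in replicate 2, where replicate 1 had no cluster. In one stretch, calls of the replicates lay side by side without a common base, at chr8:4287759-4287773 in replicate 1 and chr8:4287709-4287752 in replicate 2.

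Celf1 (ENSMUSG00000005506.16) encodes a protein that binds GU-rich elements and takes part in splicing, deadenylation and translation. It spans chr2:90940382-91019497 on the plus strand, and 4 of 92 clusters in replicate 1 (4.35%) and 5 of 56 in replicate 2 (8.93%) were significant. Its shared site of 47 bases, chr2:91016960-91017006, lay 2491 bases before the end of a 6132-base 3′UTR, the longest of the 9 genes. The log2(fold change) was 2.85 (1.23 to 4.88) from 17 IP and 4 SMInput reads in replicate 1 and 3.51 (2.13 to 5.12) from 19 and 6 reads in replicate 2. Further on, chr2:91018661-91018713 had 3.43 (1.66 to 5.83) in replicate 1, and the cluster over it in replicate 2 had 1.91, just below the threshold, from 24 and 23 reads.

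The Musashi proteins repress translation of their targets in stem cells and germ cells, and both genes lacked a shared site. Msi1 (ENSMUSG00000054256.11), chr5:115429599-115455698 on the plus strand, had 44 clusters in replicate 1 with no call and 33 in replicate 2 with 2 calls. Its strongest cluster in replicate 1, chr5:115455492-115455561 in the 3′UTR, had 35 IP and 16 SMInput reads and a log2(fold change) of 1.89 (1.0 to 2.84). Of the 2 clusters over it in replicate 2, the stronger had 1.85 from 16 and 16 reads, so both lay just under the threshold. In replicate 2 the strongest, chr5:115454353-115454438 in the 3′UTR, had 36 and 23 reads and a log2(fold change) of 2.49 (1.70 to 3.32), where the stronger of 2 clusters of replicate 1 had 1.29 from 26 and 18 reads. The coding clusters of Msi1 had median log2(fold change) values of −0.21 and −0.04, close to equal IP and SMInput.

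Msi2 (ENSMUSG00000069769.13), the longest of the 9 genes at 379132 bases, chr11:88339382-88718513 on the minus strand, had 2 of 231 clusters significant in replicate 1 (0.866%) and 17 of 155 in replicate 2 (11%). All 19 of these lay in introns. The strongest in replicate 1, chr11:88676079-88676168, had 10 IP reads and 1 SMInput read, and the strongest in replicate 2, chr11:88529979-88530055, had 6 and 1. Their log2(fold change) values were 4.08 (1.27 to 9.52) and 4.43 (1.39 to 9.96), and neither was met by a cluster of the other replicate. All 17 calls of replicate 2 had fewer than 10 IP reads, and 10 of them rested on 1 SMInput read. With at least 10 IP reads, 1 call remained in replicate 1 and none in replicate 2. The 3′UTR of Msi2 held 9 and 8 clusters and the CDS 14 and 12, none significant.

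**Figure D4:**
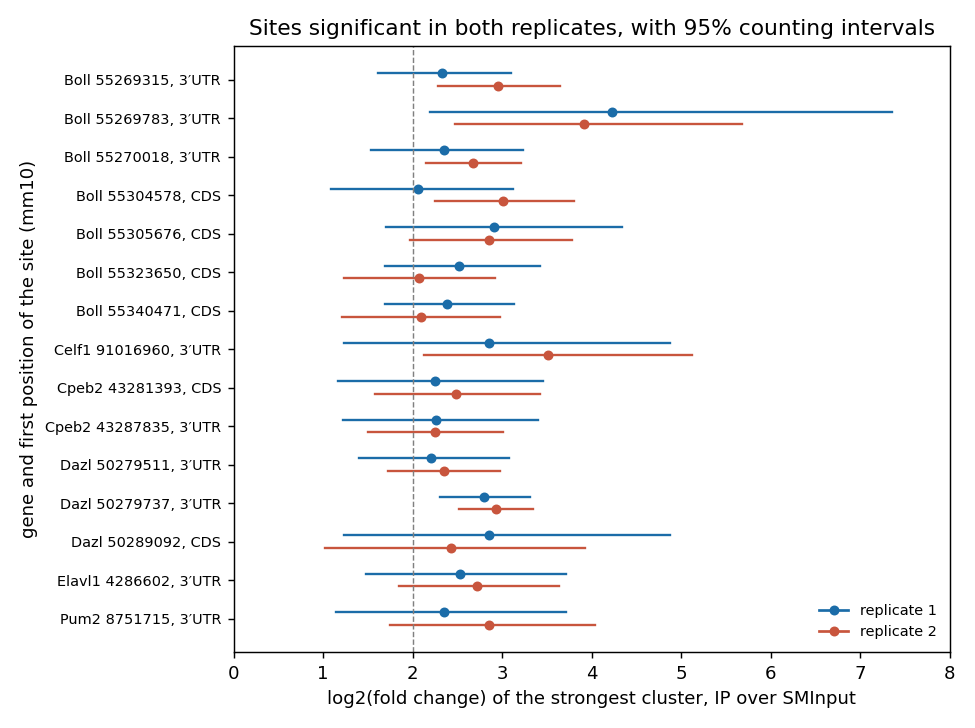
Points give the log2(fold change) of the cluster with the lowest P value at each of the 15 sites, in replicate 1 and replicate 2, and lines give its exact 95% counting interval; the dashed line marks the threshold of 2. The intervals of the replicates overlap at all 15 sites, which were chosen for reaching the thresholds in both replicates, and this choice favours overlap.

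In basic transcripts 6 of the 15 sites lay in 3′UTRs and 6 in the CDS, beside 62.5% and 27.8% of all 3896 shared sites, and the 3 sites in the last exon of Boll-206 lay outside. With the full annotation, read for the 9 genes alone, these 3 made 9 in 3′UTRs. None lay in an intron, beside 3.62% of all. The top clusters had 17 to 176 IP reads in replicate 1 and 12 to 154 in replicate 2. Values were higher in replicate 1 at 6 sites and in replicate 2 at 9, and over the whole data 54965 of 93525 pairs of overlapping clusters were higher in replicate 2. Of the 57 significant clusters of replicate 1, 21 overlapped a significant cluster of replicate 2, 10 a cluster below the thresholds and 26 none, beside 33.0%, 20.4% and 46.6% of all significant clusters. Of the 86 of replicate 2, the numbers were 23, 17 and 46, beside 18.5%, 23.2% and 58.3%. At all 10 and all 17 of the clusters that met one below the thresholds, the other replicate also had a log2(fold change) above 0, as had 98.3% and 96.7% of such clusters over the whole data.

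By region in basic transcripts, 30 of the 104 clusters in 3′UTRs of the 9 genes were significant in replicate 1, 28.8% beside 19.4% of all 3′UTR clusters. In replicate 2, 23 of 94 were, 24.5% beside 34.5%. Dazl gave 11 of the 30 and 8 of the 23, and without it 19 of 88 (21.6%) and 15 of 80 (18.8%) were significant. In the CDS, 12 of 115 clusters (10.4%, beside 5.28% of all) and 17 of 112 (15.2%, beside 7.96%) were significant, and Boll gave 6 of the 12 and 8 of the 17. In introns, 6 of 430 (1.4%, beside 1.94%) and 36 of 301 (12.0%, beside 10.8%) were. No cluster of a 5′UTR passed, of 13 and 9, beside 5.09% and 8.63% of all 5′UTR clusters, numbers too small to show a difference. With all transcripts of the annotation, read for the 9 genes alone, 3′UTRs held 35 of the 57 and 31 of the 86 significant clusters.

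Per length, the 3′UTR of Dazl was the most covered by significant clusters in replicate 1, with 594 of 1854 bases, 32.0%, and had 422 bases, 22.8%, in replicate 2. Among 7971 genes with a 3′UTR cluster in both replicates, 2.76% had a higher share in replicate 1 and 7.16% in replicate 2. The median gene had 0% and 1.15%, and 62.3% and 48.0% of genes had no base covered. The 3′UTR of Boll-206, which is outside that ranking, had 14.2% and 33.8%. Elavl1 had 6.99% and 6.73%, Pum2 6.82% and 3.32%, and Cpeb2 6.56% and 2.3%. Celf1 had 2.09% and 1.75%, Cpeb1 0% and 13.9%, Msi1 0% and 4.54%, and Msi2 0% in both. Of the 8 genes read in basic transcripts, Dazl thus came first in both replicates, and the order of the others differed between them. The place of Boll depends on the transcript, since its longest 3′UTR in basic transcripts, of 109 bases, held no significant cluster.

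The sequence at the sites was read from mm10 on the strand of the gene, in windows of 100 bases around the middle of the strongest overlap. The windows are genomic, so those near an exon end run into introns. The 5-base sequences GAACA and AAACC, named in the study, were searched on that strand alone. GAACA was in 2 of the 9 windows in 3′UTRs and 1 of the 6 in the CDS. It was in 8.32% and 7.69% of the windows at all significant 3′UTR clusters of replicates 1 and 2, and in 10.4% and 10.7% in the CDS. AAACC was in 1 of the 9 and 0 of the 6 windows, beside 8.68% and 8.47% in 3′UTRs and 9.59% and 8.51% in the CDS. GGAC, the core of the consensus around m6A, was in 1 of the 9 and 0 of the 6, beside 25% and 23.3% in 3′UTRs and 29.5% and 29.4% in the CDS. The Pumilio element TGTANATA and the polyadenylation element TTTTAAT were in none of the 15, beside 1.89% and 1.75%, and 2.26% and 2.59%, in 3′UTRs and less than 1% in the CDS. TTTTAT, another such element, was in 1 of the 9 and 0 of the 6, beside 7.38% and 8.16% in 3′UTRs and 4.1% and 4.14% in the CDS. The windows were low in G and C, with a median of 39% in 3′UTRs and 42% in the CDS, beside 45% and 49% at all significant clusters. With so few windows these are descriptions of single sites.

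The central 30 bases of some sites are shown for their read support or their motif. Capitals mark a searched motif, and runs without capitals hold none. The deepest site of Dazl (chr17:50280013-50280042, 3′UTR), the site of Boll with the largest log2(fold change) (chr1:55269787-55269816, 3′UTR), and the sites of Boll with AAACC (chr1:55269370-55269399, 3′UTR) and GAACA (chr1:55340550-55340579, CDS) read as follows, all on the minus strand.
Dazl, deepest: tagacaagtaacagttaacaagcagctcag
Boll, largest: aacgctcttccttttctcacttttaccaat
Boll, AAACC: tctaataggcttttttcttctgAAACCata
Boll, GAACA: ctgGAACAatgtatctgaccacttcaactg

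Of 11 paralogs of the 9 genes, all had clusters in both replicates, 3 had a significant cluster in both and 2 a shared site. Of their clusters, 16 of 702 (2.28%) and 43 of 444 (9.68%) were significant, below the shares over all clusters. Cpeb4, a paralog of the CPEB genes, had a site in the 3′UTR at chr11:31934370-31934432, with a log2(fold change) of 2.93 from 9 IP and 2 SMInput reads in replicate 1 and 2.85 from 12 and 6 reads in replicate 2.

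Of 20 partners and other translation regulators of germ cells, 18 had clusters in both replicates, 12 a significant cluster in both and 7 a shared site, 20 sites in all. Of their clusters, 57 of 592 (9.63%) and 81 of 470 (17.2%) were significant. Without Dazap2 and Samd4b, the genes with the most sites, 29 of 494 (5.87%) and 53 of 384 (13.8%) were, beside 4.92% and 13.2% of all clusters. Dazap2, whose protein binds DAZ proteins, had 5 sites, and 13 of its 14 and 11 of its 13 clusters were significant. Samd4b, a relative of the repressor Smaug, also had 5 sites, and its strongest had a log2(fold change) of 5.95 and 6.01 with −log10(P value) listed at 400, where reads cannot be recovered. Dazap1, another DAZ-associated protein, and Ddx6 had 3 sites each, the strongest of Dazap1 with 3.29 from 98 IP and 17 SMInput reads in replicate 1 and 3.19 from 94 and 37 reads in replicate 2. Nanos2 had no cluster in either replicate.

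Markers of the cell types of the testis were read for clusters of either sign, which report RNA fragments and not cell numbers. All 6 spermatid, 4 spermatocyte and 4 spermatogonium markers had clusters in both replicates. So had 4 of 5 Sertoli, 5 of 5 Leydig, 2 of 2 peritubular and 3 of 4 blood and immune markers, Rhox5 and Hbb-bs having clusters in replicate 1 alone. RNA of the labelled germ and somatic cells was thus present in the reads. Significant were 7 of 61 and 4 of 58 clusters of spermatid markers, 2 of 217 and 12 of 193 of spermatocyte markers, and 4 of 71 and 12 of 63 of spermatogonium markers. Of the somatic lists, 1 of 142 and 6 of 128 clusters of Sertoli markers and 2 of 41 and 4 of 40 of Leydig markers were significant. For peritubular markers the counts were 1 of 50 and 3 of 26, and for blood and immune markers 0 of 19 and 1 of 5. From which cell types the reads of the 9 genes came was not tested.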

How the data were processed

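Per the study's methods, the authors trimmed the reads, took out ribosomal ones, mapped to mm10, collapsed duplicates by UMI and ran Clipper on each replicate. The submitters' processing notes name cutadapt, Bowtie2 and STAR. The deposited log2 values compare IP with SMInput reads after scaling to each library, by the authors. The deposited −log10 values, from 0 to 400, express P values that the authors computed for each cluster. Reads were recovered with a chi-square test (Yates' correction) or, for low numbers, Fisher's exact test, which the methods name for gene regions and do not state for clusters.

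Whole reads were recovered as the pair of numbers that returns both listed values within a relative 1e-05, with 1 solution for 98.5% and 98.6% of those listed strictly between 0 and 400. All significant clusters of the 9 genes had 1. The procedure was tested on simulated data, but the outcome is not given here. Intervals are exact conditional binomial (Clopper-Pearson). Sites join touching significant clusters that overlap between replicates by at least 1 base. Regions came from basic GENCODE M21 transcripts at the cluster centre, with 3′UTRs given priority, then coding sequence, 5′UTRs, other exons and introns, and sequence from GRCm38. Named were all shared sites, the strongest cluster by P value in genes without one, and, of each other list, the 3 genes with the most sites and those without a cluster, though not every gene so chosen is described. Clusters called in 1 replicate that are named beyond this, and Ddx6, Rhox5, Hbb-bs and the named spermatid markers, were picked after their values were seen. The members and lists were chosen with earlier results of these data known, and no list was tested. Python 3.11.15, scipy 1.17.1, pandas 2.3.3, pysam 0.24.0 and bedtools 2.31.1 were used.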

Additional observations from a re-analysis of the deposited data

How the results depend on the processing

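With both thresholds at 3, the significant clusters of the 9 genes fell from 57 to 11 in replicate 1 and from 86 to 8 in replicate 2, genes with a call in both replicates from 8 to 4, and shared sites from 15 to 2. The share of calls in 3′UTRs was then 50.0% in replicate 2, from 26.7%. At a log2(fold change) minimum of 1, the counts were 92 and 140 clusters and 38 sites, and the share in 3′UTRs in replicate 2 was 39.3%. Giving each cluster to the gene whose start site was closest, whatever its strand, left 22 and 39 clusters, 3 genes (Boll, Dazl and Msi2) and 7 sites. The calls moved away went to neighbours such as Timm44 for Elavl1 and Sdc1 for Pum2. At least 10 IP reads left 45 clusters in replicate 2, 44.4% of them in 3′UTRs. The other counts recomputed stayed within 1.5 times. The other shares in 3′UTRs ran from 50% to 61.4% in replicate 1, where 52.6% was the main value, and from 20.5% to 36% in replicate 2. This covers the settings above, any overlap with the gene, other orders or choices of transcripts, a longer overlap between replicates, and all transcripts or at least 2 SMInput reads. These last settings, the sites by closest start site, and the shares in 3′UTRs under the read minimums, the lower threshold and the closest start site were chosen after seeing the data. The 15 sites were also 15 with at least 10 IP reads. With either replicate left out, 8 to 9 genes had a call. Adding 1 read to IP and SMInput moved the log2(fold change) at the sites by 0.01 to 0.52, each within its interval, and took 1 of the 15 sites, Boll in exon 9, under the threshold in replicate 1, leaving 14.

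No paired analysis was possible because no result comes from a test between groups of samples that takes a block. The pairing is already inside each deposited value, which sets an IP against the SMInput of its own replicate, and a test over the 2 pairs, with 1 residual degree of freedom, was not made. With 2 replicates the spread between preparations can be estimated only poorly, and the intervals leave it out. The lowest recovered SMInput number was 1, and whether a 1 stands for 0 was not tested.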

Other observations

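The 30-base windows at the 15 sites were compared with each other for the longest run of bases in common, a search chosen after the sites were known. The longest within these windows had 12 bases and was common to the CDS sites of Dazl and Cpeb2. It stood in 2 of the 15 sites and in 2 of all 3896 shared sites of the data. The edge of the Dazl window cuts this run. Its first 11 bases stood in 3 of the 15 sites, the Dazl sites in the CDS and near the end of the 3′UTR and the Cpeb2 site in the CDS. Windows of 100 bases at all shared sites held these 11 bases at the 3 and at no other. The 11 bases are in capitals, in mm10 on the strand of the gene, and the printed CDS sequences also share the base on each side of them.
Dazl, CDS (chr17:50289097-50289125, minus strand): aaacaccgtTTTTGTTGGAGgaattgatg
Dazl, 3′UTR (chr17:50279518-50279546, minus strand): tgtctgctgTTTTGTTGGAGtcaagtatt
Cpeb2, CDS (chr5:43281442-43281470, plus strand): aaaaacaatTTTTGTTGGAGgtgttccta
What either run has to do with IGF2BP3 was not tested.

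Across the 240 pairs of overlapping clusters of the 9 genes, significant or not, the log2(fold change) of replicate 1 and that of replicate 2 correlated with a Pearson's r of 0.675 (Spearman's rho 0.675). Across all 93525 pairs of the data the same measures were 0.649 and 0.604. Pairs share their libraries and neighbours on a transcript, so they are not independent. Within the 9 genes, with 6 to 47 pairs each, r ran from 0.393 in Pum2 to 0.798 in Dazl and rho from 0.329 in Pum2 to 0.807 in Dazl.

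On the strand opposite to the 9 genes, the tables hold 1 cluster within Boll in each replicate, neither significant, and none within the other 8 genes.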
